A study of Mus musculus with 2 samples.

Results

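Mir218-1, Mir218-2 and Mir490 are 3 microRNA hairpin genes that lie in introns of genes with roles in the heart. Mir218-1 is carried by Slit2, Mir218-2 by Slit3 and Mir490 by Chrm2. The members were chosen by name, as the rows of the deposited count tables whose Ensembl identifier has 1 of these 3 symbols in GENCODE M21, and all 3 were found among 1973 gene rows. The libraries hold small RNA (under 30 bases, per the labels) of whole heart from embryos of mouse strain B6NCrl at embryonic day 12.5, with males and females pooled. No genotype change and no treatment is given. The series consists of 1 group of 2 biological replicates, so it allows no comparison between conditions. The replicates are labelled as separate biological samples with 1 donor label in common, and no source says whether they came from separate litters, so the spread between them is that of these samples.

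A microRNA gene gives a hairpin precursor whose 5p and 3p arms can each be cut out as a mature microRNA of about the length of a sequencing read. The mature strand pairs with target messenger RNAs mainly through its seed, bases 2 to 8. Slit2 and Slit3 encode secreted ligands of the Robo receptors, which guide axons and act in heart tube and septum formation, and miR-218 is known to target Robo messenger RNAs. miR-218 is also a well-known microRNA of motor neurons. Chrm2 encodes the M2 muscarinic acetylcholine receptor, through which the vagus nerve slows the heart. Host messenger RNA was not measured here, so nothing in these values refers to the level of Slit2, Slit3 or Chrm2.

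The mature sequences are shown first, since they decide which reads can be assigned to which gene. They are from RefSeq on GRCm38.p6, written 5′ to 3′ with the seed in capitals.
miR-218-5p (Mir218-1 and Mir218-2): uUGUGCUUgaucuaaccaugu
miR-218-1-3p (Mir218-1): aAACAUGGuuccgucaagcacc
miR-218-2-3p (Mir218-2): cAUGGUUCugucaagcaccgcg
miR-490-5p (Mir490): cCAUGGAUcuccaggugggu
miR-490-3p (Mir490): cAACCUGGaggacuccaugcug

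Both mir-218 genes give the same miR-218-5p, while their 3p arms differ. Within the stretch of 19 bases that the 3p arms have in common, 18 were the same and the single difference was C12U, with positions counted from the 5′ end of miR-218-1-3p and the base of miR-218-1-3p written first. The annotated 3p arms also start at different bases, so that their seeds differ. The whole hairpins, shown to place this difference, have the mature arms in capitals.
Mir218-1 hairpin: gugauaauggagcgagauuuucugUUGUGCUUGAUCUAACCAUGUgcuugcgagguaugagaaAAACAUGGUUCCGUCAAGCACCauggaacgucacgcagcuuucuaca
Mir218-2 hairpin: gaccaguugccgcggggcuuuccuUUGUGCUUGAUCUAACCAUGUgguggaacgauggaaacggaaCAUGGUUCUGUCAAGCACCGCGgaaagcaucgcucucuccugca
Mir490 hairpin: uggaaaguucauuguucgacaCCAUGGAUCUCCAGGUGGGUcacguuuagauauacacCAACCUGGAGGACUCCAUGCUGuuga

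Set base against base, the 2 mir-218 hairpins of 110 bases were the same at 71 positions (64.5%). The 5p arm was the same at 21 of 21 positions and bases 64 to 85, the 3p arm of Mir218-1, at 20 of 22. The loop between the arms was the same at 6 of 18 positions, the bases before the 5p arm at 11 of 24 and those after the 3p arm at 13 of 25. The longest shared stretch, uugugcuugaucuaaccaugug, runs over 22 bases, which is the mature 5p sequence and 1 further base.

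This sets what the count tables can hold for the pair. A read that starts at the annotated 5′ end of miR-218-5p and has 18 to 22 bases fits both hairpins exactly, and only from 23 bases on does it fit 1 of them. Reads of 18 or more bases from either 3p arm fit their own hairpin alone among the annotated microRNA hairpins of GENCODE M21. No stretch of 18 bases of the Mir490 hairpin was found in another annotated hairpin. A read that fits several places, such as a miR-218-5p read of 18 to 22 bases, was counted to no gene. Reads with several places numbered 2503492 in replicate 1 and 2677232 in replicate 2. The tables do not say from which sequences those reads came. The counts of Mir218-1 and Mir218-2 are therefore levels of their distinguishing reads and not of mature miR-218-5p, and they do not say which arm a read came from.

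The miR-218-5p seed was shared with 1 mature sequence of another gene among 1738 in the RefSeq table. This was miR-7002-3p, with which it has the first 8 bases in common.
miR-7002-3p (Mir7002): uUGUGCUUccccuugccag
The seed of miR-218-1-3p was shared with miR-496b, and the seeds of miR-218-2-3p, miR-490-5p and miR-490-3p with no other gene. Mir7002 and Mir496b had 0 counts in both libraries. Levels are given below as CPM, the counts of a gene per 1000000 sense counts of the library's genes. On this scale a gene without counts could still stand at up to 0.670 in replicate 1 and 0.568 in replicate 2. Among the seed partners, then, the genes described here were the ones with counts.

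The hairpins of the mir-218 pair lie at matching places in their hosts. On GRCm38 with GENCODE M21, Mir218-1 (ENSMUSG00000065603.1) spans bases 48223942 to 48224051 of chromosome 5 and Mir218-2 (ENSMUSG00000065583.1) bases 35616816 to 35616925 of chromosome 11. Both are on the plus strand, which is that of the host. In the principal transcripts of Slit2 and Slit3, which have 36 exons each, both hairpins fall in intron 14 of 35. The exon before the intron has 164 bases in both hosts, and the exon after it has 151 bases in both. The introns themselves differ in length, with 4572 bases in Slit2 and 9571 in Slit3. Mir218-1 starts 3861 bases after the upstream exon and ends 601 bases before the downstream one, and Mir218-2 lies 4379 and 5082 bases from its flanking exons. In the 3 other basic transcripts of Slit2 that span the hairpin, the intron is number 15 or 16.

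Mir490 (ENSMUSG00000070075.1) spans bases 36421742 to 36421825 of chromosome 6, also on the plus strand. It falls in the second and last intron of the principal Chrm2 transcript of 3 exons, and that intron has 134418 bases. The hairpin starts 33658 bases from the start of the host, whereas Mir218-1 and Mir218-2 start 240804 and 495592 bases into theirs. None of the 3 hairpins overlapped an annotated exon of its host, and no GENCODE M21 gene lay on the opposite strand of any of them. Each was the only microRNA row within its host on the host's strand. On the gene's own strand, no row lay within Slit1, the third Slit gene, or within Robo1, Robo2, Robo3 or Robo4. The same held for the muscarinic receptor genes Chrm1, Chrm3, Chrm4 and Chrm5. Rows on the opposite strand of these Slit, Robo and Chrm genes were not looked for. The nearest microRNA row to Mir218-2 was Mir103-1, a hairpin in an intron of Pank3, at a distance of 165471 bases.

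**Figure D1:**
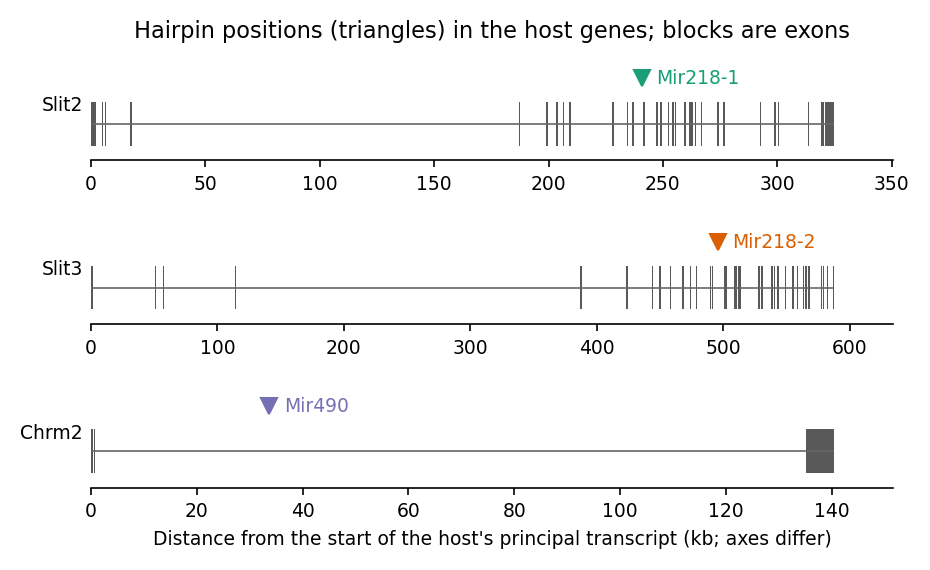
Principal transcripts of Slit2, Slit3 and Chrm2, with distance from the transcript start in kilobases on the x axis (the 3 axes differ in scale), exons as blocks and the hairpin as a triangle. Mir218-1 and Mir218-2 sit among the closely spaced exons of the later part of their hosts, and Mir490 sits in the long last intron of Chrm2.

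Replicate 1 held 4478599 sense counts over all genes and replicate 2 held 5279908, which were 48.5% and 49.8% of the reads in the tables. All 3 genes were detected in both libraries and kept 1 order, with Mir490 highest and Mir218-1 lowest. Mir490 had 266 counts (59.4 CPM) in replicate 1 and 319 counts (60.4 CPM) in replicate 2, a level of 59.9 ± 0.724 CPM (SD, n = 2). Mir218-2 had 195 counts (43.5 CPM) and 252 counts (47.7 CPM), a level of 45.6 ± 2.96 CPM (SD, n = 2). Mir218-1 had 69 counts (15.4 CPM) and 114 counts (21.6 CPM), a level of 18.5 ± 4.37 CPM (SD, n = 2). The values of the genes did not overlap between libraries, since the lowest value of each gene lay above the highest of the next. On the opposite strand each gene had 0 counts in both libraries, so the values rest on the annotated strand alone.

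Exact Poisson intervals (95%), which like all intervals here cover counting error only, did not overlap between the genes in replicate 1, and in replicate 2 those of Mir490 and Mir218-2 overlapped slightly. In replicate 1 they ran from 52.5 to 67.0 CPM for Mir490, from 37.6 to 50.1 CPM for Mir218-2 and from 11.99 to 19.5 CPM for Mir218-1. In replicate 2 they ran from 53.97 to 67.4 CPM for Mir490, from 42.02 to 53.999 CPM for Mir218-2 and from 17.8 to 25.9 CPM for Mir218-1. The reads carry no stated molecular identifiers, so copies made by PCR are not told apart.

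**Figure D2:**
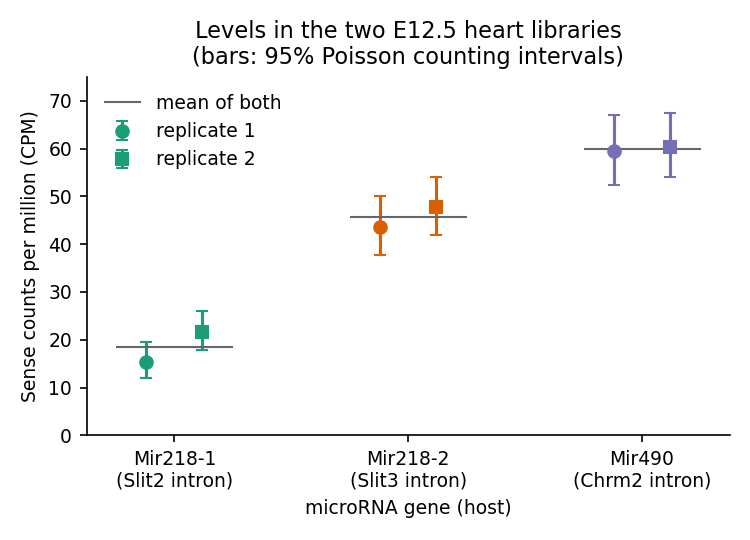
Sense CPM (y axis) of the 3 genes (x axis) in each library, with 95% Poisson counting intervals as bars and the mean of both libraries as a grey line. Mir490 lies near 60 CPM in both libraries, Mir218-2 between 43.5 and 47.7 CPM, and Mir218-1 at 15.4 and 21.6 CPM.

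Between the copies, the reads that tell them apart were mostly those of the Slit3 hairpin. Mir218-2 exceeded Mir218-1 by a ratio of 2.83 in replicate 1 (exact binomial 95% interval 2.14 to 3.78) and of 2.21 in replicate 2 (1.76 to 2.78), with a mean of 2.52 ± 0.435 (SD, n = 2). Mir218-1 made up 26.1% of the pair's counts in replicate 1 (exact interval 20.9% to 31.9%) and 31.1% in replicate 2 (26.4% to 36.2%). The direction was the same in both libraries and the difference was larger than the spread between them. Whether the shared 5p reads divide between the loci in the same ratio cannot be read from these counts.

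Mir490 stood above each copy and close to their sum. It exceeded Mir218-2 by a ratio of 1.31 ± 0.0695 (SD, n = 2), with counting intervals of 1.13 to 1.65 and 1.07 to 1.499 in replicates 1 and 2, and Mir218-1 by a ratio of 3.33 ± 0.747 (SD, n = 2). Against the sum of both copies the ratio was 1.01 in replicate 1 (interval 0.847 to 1.20) and 0.872 in replicate 2 (interval 0.748 to 1.02), so no difference from the sum was detectable at this depth. A read covers about a whole mature microRNA, so these counts were not divided by length. Divided by hairpin length (84 bases for Mir490), the ratios of Mir490 were 1.72 ± 0.0910 (SD, n = 2) to Mir218-2, 4.36 ± 0.979 (SD, n = 2) to Mir218-1 and 1.23 ± 0.126 (SD, n = 2) to the sum. As the pair's shared reads are missing from its counts, these ratios do not order mature miR-490 and miR-218.

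The libraries differed little in Mir490 and Mir218-2 and more in Mir218-1. As replicate 2 over replicate 1, the ratio of CPM was 1.02 for Mir490 (95% counting interval 0.862 to 1.20), 1.096 for Mir218-2 (0.906 to 1.33) and 1.40 for Mir218-1 (1.03 to 1.92). The counts of each gene were compared by an exact binomial test, with Benjamini-Hochberg adjustment over 712 genes with a count. The adjusted p of this exact test was 1 for Mir490, 0.775 for Mir218-2 and 0.134 for Mir218-1. None of the 3 was called at an adjusted p of 0.05 with a ratio of at least 2-fold, where 3 of 712 genes (0.421%) were called in all, and none was called without a minimum ratio, where 119 genes (16.7%) were. Unadjusted, Mir218-1 had a p of 0.0262 in this exact binomial test and the other 2 genes did not fall below 0.05. The test compares 2 libraries of 1 group and holds counting error alone.

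On the log2 scale these differences were 0.02 for Mir490, 0.13 for Mir218-2 and 0.49 for Mir218-1. None reached 2-fold, against 25 of 444 genes (5.63%) with at least 10 counts in total. Over these 444 genes the median absolute log2 ratio was 0.20. Ratios at least as far from 1 as that of Mir218-1 were found at 89 of these genes (20.05%), and at least as far as that of Mir490 at 415 (93.5%). The gene with the fewest counts of the 3 was thus the one with the largest difference.

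**Figure D3:**
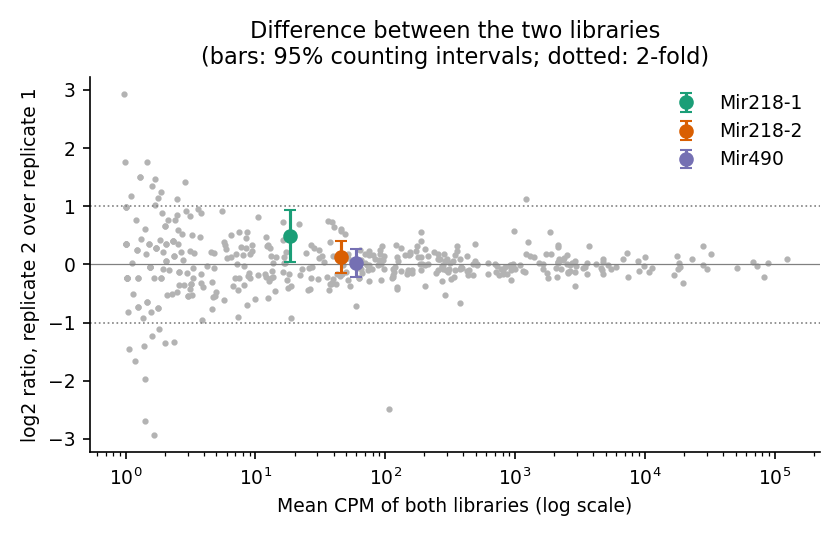
The log2 ratio of replicate 2 over replicate 1 (y axis) against mean CPM (x axis, log scale) for genes with at least 10 counts in total, with the 3 genes in colour and 95% counting intervals as bars. Mir490 and Mir218-2 lie near 0 and Mir218-1 at 0.49, inside the dotted lines of 2-fold.

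Among all microRNA genes of the heart libraries, the 3 stood in the upper part of the ranking of genes with a count and far below the most abundant genes. By mean CPM, Mir490 was at position 208, Mir218-2 at 224 and Mir218-1 at 259 of 712 genes with a count. Of the genes with a count, 70.8% lay below Mir490, 68.5% below Mir218-2 and 63.6% below Mir218-1. Together they took 118 CPM in replicate 1 and 130 CPM in replicate 2, or 0.0124% of all sense counts.

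GENCODE M21 places 709 gene rows in an intron of a protein-coding gene of the same strand, and 360 of these had a count, with a median of 1.23 CPM against 2.53 CPM over all genes with a count. Within these 360, Mir490 held position 82, Mir218-2 position 89 and Mir218-1 position 99, and all 3 were among the 112 that reached a mean of 10 CPM. The intronic microRNAs of cardiac myosin genes stood far higher in the same libraries. Mir208b, in Myh7, reached 50918 ± 1313 CPM (SD, n = 2). The counted reads of Mir208b, Mir208a and Mir499 summed to 507 times those of Mir218-1, Mir218-2 and Mir490. Those 3 myosin-gene microRNAs share no mature arm with another gene, whereas the shared reads of the mir-218 pair are missing from its sum. The ratio therefore does not compare mature microRNA levels. Mir208a, known as a heart muscle microRNA, and Mir208b and Mir499, known from heart and slow skeletal muscle, were thus all present in the tissue labelled heart.

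**Figure D4:**
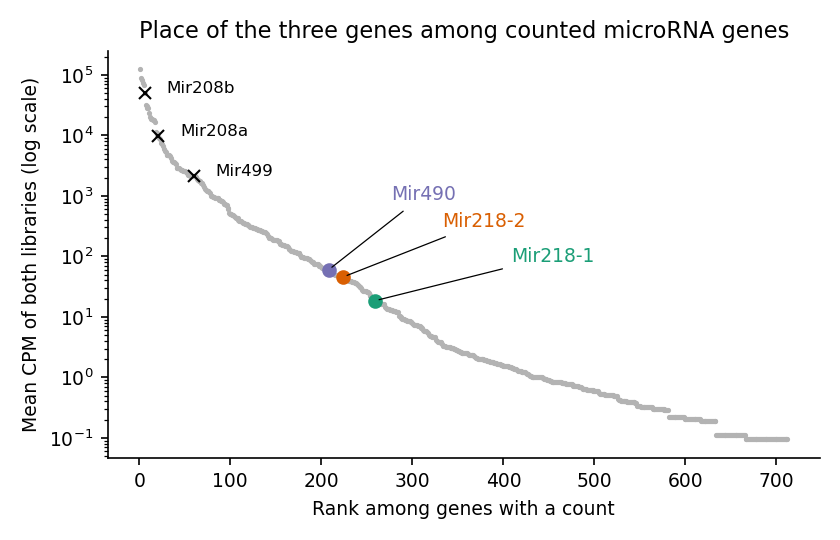
Mean CPM of both libraries (y axis, log scale) against rank for the 712 genes with a count. Mir490, Mir218-2 and Mir218-1 lie at ranks 208, 224 and 259, with most genes below them, and stand far below the myosin-gene microRNAs Mir208b, Mir208a and Mir499. The points of Mir218-1 and Mir218-2 leave out their shared reads.

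The genes nearest in level, by the distance of log2(CPM + 1) over the 2 libraries, were of several kinds. For Mir490 they were Mir128-1 (60.4 ± 1.79 CPM, SD, n = 2), a microRNA known from neurons that lies in an intron of R3hdm1, Mir670 (56.3 ± 0.414 CPM) and Mir539 (64.6 ± 1.34 CPM). For Mir218-2 they were Mir666 (43.98 ± 3.15 CPM), the epithelial Mir200a (46.9 ± 1.22 CPM) and Mir452 (47.5 ± 0.149 CPM). For Mir218-1 they were Mir6944 (19.2 ± 4.73 CPM), Mir184 (17.3 ± 1.76 CPM) and Mir222 (16.4 ± 3.31 CPM), which is known from blood vessels. With 2 libraries of 1 group, this likeness is one of level and not of a pattern across conditions.

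Neighbours in rank were not always separated from the members. Mir218-2, at 45.6 CPM, stood between Mir668 at 45.7 ± 12.8 CPM (SD, n = 2) and Mir92-2 at 44.6 ± 4.46 CPM. Mir490, at 59.9 CPM, stood between Mir128-1 and Mir615 at 59.6 ± 20.3 CPM. Mir218-1, at 18.5 CPM, stood between Mir3061 at 18.6 ± 3.32 CPM and Mir219a-1 at 18.2 ± 1.39 CPM. These neighbours differed from the members by less than their spread between libraries, so the exact position of each member is not fixed.

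Because the tables leave out reads that fit several places, the members were also set among genes grouped by whether their mature arms are shared. Of the gene rows, 858 could be matched to a RefSeq hairpin with a mature sequence, and sharing was looked for within that table. Mir490 belongs to 775 genes with no arm identical to an arm of another gene. Of these, 522 had a count, and 160 of the 522 stood above Mir490. Mir218-1 and Mir218-2 belong to 52 genes in which 1 of 2 arms is identical to an arm of another gene. Of these, 45 had a count, with a median of 32.7 CPM, which lay between Mir218-1 and Mir218-2.

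The highest gene of this class was Mir92-1 at 2394 CPM, while among genes with no shared arm the highest was Mir335 at 123361 CPM. Mir218-2 was exceeded by 16 of the 45 genes and Mir218-1 by 27. Of 31 genes with every annotated arm shared, 8 had a count. The medians over genes with a count were 1.84 without a shared arm, 5.07 with 1 shared arm and 3.06 with every arm shared, on the log2(mean CPM + 1) scale. This order depends on the genes taken. Among genes of at least 10 CPM (216, 31 and 3 genes) the medians were 8.06, 5.57 and 6.06, the last resting on 3 genes only. Over all matched genes, with or without a count, they were 0.58, 4.51 and 0.

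**Figure D5:**
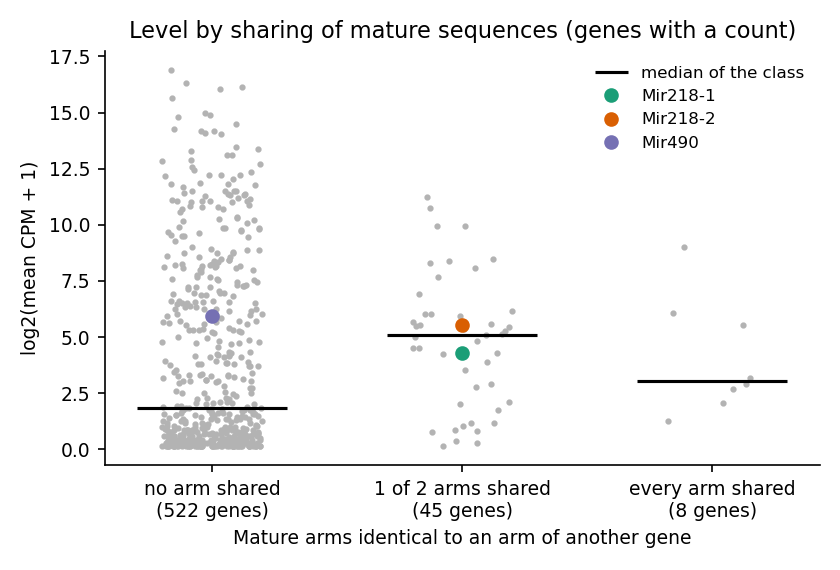
The log2(mean CPM + 1) (y axis) of genes with a count, by whether none, 1 of 2 or every mature arm is identical to an arm of another gene (x axis), with the class median as a black line. Mir218-1 and Mir218-2 lie below and above the median of the genes with 1 shared arm, and Mir490 lies above the median of the genes with none.

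The mir-218 pair was 1 of 19 pairs in which 2 genes share 1 arm and differ in the other. Among the 13 pairs whose lower copy had at least 10 counts in each library, a limit chosen after the values were seen, the ratio of the higher to the lower copy had a median of 3.85 and ran from 1.18 to 54.1. The mir-218 ratio of 2.52 was exceeded by 8 of these pairs and lay above 4. The higher copy was the same in both libraries in 12 of the 13 pairs, the mir-218 pair among them, the exception being Mir194-1 and Mir194-2.

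Some of these pairs lie in related hosts as Mir218-1 and Mir218-2 do. Mir103-2, in Pank2, exceeded Mir103-1, in Pank3, by a ratio of 14.5 ± 2.28 (SD, n = 2), and both hosts encode pantothenate kinases. Mir26a-2, within Ctdsp2, exceeded Mir26a-1, in an intron of Ctdspl, by a ratio of 3.85 ± 0.951 (SD, n = 2), and both hosts encode small phosphatases. Mir128-1, in R3hdm1, exceeded Mir128-2, in Arpp21, by a ratio of 4.42 ± 0.336 (SD, n = 2). The mean ratio of the copies in Slit3 and Slit2, at 2.52 ± 0.435 (SD, n = 2), lay below these 3 values, and the difference between pairs was not tested. Each ratio rests on the pair's distinguishing reads.

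Since miR-218 is known from motor neurons, microRNAs of neural tissue are given beside it. Of 19 listed neural microRNA genes in the tables, 11 reached a mean of 10 CPM, and the 19 summed to 472 and 524 CPM in replicates 1 and 2. Over all 1973 gene rows, 284 reached 10 CPM in both libraries, which is a limit on each library and not on the mean. The highest were Mir138-2 at 120 ± 19.7 CPM (SD, n = 2) and Mir132 at 89.98 ± 3.46 CPM, and 4 of the 19 stood above Mir490. Whether the listed genes are particular to neural cells in this tissue was not tested. Mir137, a neuronal microRNA whose hairpin shares no 22 bases with another, stood at 17.6 ± 2.33 CPM and Mir153 at 12.9 ± 1.83 CPM. At 0 counts in both libraries were Mir9-2, Mir124a-2 and Mir124a-3, while Mir124a-1 had 0 and 1 counts and Mir9-3 had 9 and 4. Each of these 5 hairpins shares a stretch of 22 bases with another annotated hairpin, so their counts do not measure mature miR-9 and miR-124. The hairpin of Mir138-2, the highest, also shares such a stretch, as do those of further genes in the list. Its level and the sums of the list therefore leave out reads that fit several places. The part of neural cells in the levels of Mir218-1 and Mir218-2 was not tested, and fewer cells of a type and less RNA per cell cannot be told apart in whole tissue.

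M2 receptors are also known from smooth muscle, and the other cell types of the tissue are given in summed levels. The 7 listed microRNAs of smooth muscle and mesenchyme summed to 121199 and 122532 CPM in replicates 1 and 2, led by Mir143 and Mir21a. Hairpins of the mir-199 genes in this list share a stretch of 22 bases with another annotated hairpin, so reads that fit several places are missing from the sum. The endothelial Mir126a held 67024 and 68770 CPM. The erythroid microRNAs Mir451a and Mir144 summed to 926 and 1811 CPM, and the 5 of liver and gut, led by Mir215 and Mir122, to 586 and 430 CPM. Within these last 2 lists the genes did not move together. Mir451a stood at 770 and 1671 CPM and Mir144 at 156 and 140 CPM, while Mir122 stood at 181 and 32.4 CPM and Mir215 at 276 and 268 CPM. Beside them, Mir490 stood at 59.4 and 60.4 CPM, Mir218-2 at 43.5 and 47.7 CPM and Mir218-1 at 15.4 and 21.6 CPM. The part of such cells in the levels of the 3 genes was not tested.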

How the data were processed

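Small RNA libraries of 2 biological replicates of embryonic mouse heart were analysed, 1 deposited table each. The authors deposited raw counts of reads per microRNA gene, on assembly mm10 with annotation M4 per the descriptions deposited with the tables. For the aligner and the counter, a name is not given in the sources used here. The 3 columns of counts in a table have no names and were read from the values as without strand, sense and antisense. The 4 rows that name no gene were left out of library sizes. They held unmapped reads (18.1% and 19.1% of reads in replicates 1 and 2) and reads that fit several places (27.1% and 25.3%). They also held reads not on the sense strand of a microRNA gene (6.29% and 5.88%) and ambiguous reads (0). Reads antisense to a microRNA gene, 217121 in replicate 1 and 228729 in replicate 2, are part of that 6.29% and 5.88%.

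Names and positions came from GENCODE M21 (GRCm38, also called mm10), which held 1894 of 1973 identifiers, and sequences from a RefSeq table of GRCm38.p6, which held all 3 members with hairpins identical to those of M21. CPM used the sum of sense counts over all genes, and log2 values a pseudocount of 1. Precision is set by the counts: 1 count was 0.223 CPM in replicate 1 and 0.189 CPM in replicate 2, and a count of 0 allows 3 counts. Libraries were compared by an exact binomial test, checked on simulated Poisson counts, which hold counting error alone. That check does not cover spread between biological samples. Between the actual libraries, 119 of 712 genes (16.7%) passed an adjusted p of 0.05 in this test. Python 3.11.15, numpy 2.4.6, pandas 2.3.3, scipy 1.17.1 and matplotlib 3.10.9 were used, and as alternatives the scalings of edgeR 4.0.16 and DESeq2 1.42.0 in R 4.3.3. Other alternatives changed the strand column, denominator, genes tested, pseudocount and definition of a shared arm, and left out each replicate.

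The members and lists were chosen with earlier results of these data known. Genes named are the members, the 3 genes nearest in level to each, their neighbours in rank, seed partners, copy pairs and the highest of each marker list. Mir335, Mir92-1, Mir137, Mir153 and the copies of mir-9, mir-124 and mir-194 were named after their values were seen.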

Additional observations from a re-analysis of the deposited data

How the results depend on the processing

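The differences of Mir218-1, Mir218-2 and Mir490 between libraries kept their direction and stayed uncalled under all 6 alternatives tried for each. Alternatives that only restricted the genes tested kept counts and totals, so the ratios could not change. In the exact binomial test the adjusted p of Mir218-1 was lowest, at 0.084, among genes with at least 10 counts. Its largest log2 ratio, 0.525 with all reads as denominator, stayed below the 2-fold needed for a call. The ratio of Mir218-1 to Mir218-2 (0.403) had to stay the same without regard to strand, since neither gene had antisense counts. With 2 libraries, leaving out 1 always moves a mean by less than the SD, so that alternative does not test a level or ratio. With all reads of the library as denominator, which includes reads outside the genes, the levels were 9.11 CPM for Mir218-1, 22.4 CPM for Mir218-2 and 29.4 CPM for Mir490. With counts without regard to strand, whose total is larger, Mir490 stood at 57.3 CPM. TMM and DESeq2 scaling moved no level of the 3 genes beyond its spread. The TMM factors were 1.007 and 0.993 in replicates 1 and 2, so a mean of both libraries could hardly move under them. Leaving out a library gave 15.4 to 21.6 CPM for Mir218-1, 43.5 to 47.7 CPM for Mir218-2 and 59.4 to 60.4 CPM for Mir490. It gave ratios of 0.354 to 0.452 for Mir218-1 to Mir218-2 and of 0.872 to 1.01 for Mir490 to the pair. Divided by hairpin length, an alternative added after the data were seen, the last ratio was 1.23. The count of genes that differed between libraries was 3, with 4 among genes of at least 10 counts and 119 without a minimum ratio.

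The medians by shared arms depended on which genes entered. For genes with no shared arm, 1 shared arm and every arm shared, in this order and as log2(CPM + 1), they were 0.58, 4.51 and 0 over all matched genes and 8.06, 5.57 and 6.06 from 10 CPM on. The value of 6.06 rests on 3 genes only. With a stretch of 18 bases in another hairpin as the criterion they were 1.80, 5.35 and 4.81, and with a pseudocount of 0.1 they were 1.42, 5.03 and 2.89. Leaving out a library gave 1.87 to 1.88, 5.002 to 5.14 and 3.04 to 3.10. The cause of these changes in order was not tested. No paired analysis was possible because the series has 1 group. Depth limits Mir218-1 most, with 69 and 114 counts.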
